A study of Mus musculus with 26 samples.

Results

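The phagocyte NADPH oxidase is the enzyme complex with which neutrophils and macrophages turn oxygen into superoxide to kill microbes. The 5 genes described here, Cybb, Cyba, Ncf1, Ncf4 and Rac2, encode subunits of it. They were taken by name from the 19938 genes measured on 26 arrays, each gene read by its probe set with the highest mean over the arrays. All 5 were found, each with 1 probe set. The RNA came from progenitor populations of mouse bone marrow, sorted from animals of 8 to 15 weeks with the genotype Gata1-EGFP Tg/+. In these mice a green fluorescent protein (GFP) reports on Gata1, a transcription factor of red cell, platelet, mast cell and eosinophil development; the sequences that drive the reporter are not given in the sources used here, and all groups carry it.

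The 8 groups were defined by surface markers and, for 6 of them, by reporter signal. Granulocyte-macrophage progenitors (GMP) lacked lineage markers, Sca1 and CD41 and carried Kit and the Fc gamma receptors; 3 arrays held reporter-positive cells (GMP GFP+) and 4 held reporter-negative cells (GMP GFP-). Pre-megakaryocyte-erythroid progenitors (PreMegE, 3 arrays) lacked the Fc gamma receptors and CD105 and carried CD150, with no reporter gate in the labels. Pre-granulocyte-macrophage progenitors differed from them by lacking CD150, with 3 arrays of PreGM GFP+ and 3 of PreGM GFP-. Common lymphoid progenitors (CLP, 3 arrays) were B220-negative, low for Sca1 and Kit and positive for Flt3 and the interleukin-7 receptor, again with no reporter gate. Lymphoid-primed multipotent progenitors (LMPP, 4 arrays) and haematopoietic stem cells (HSC GFP-, 3 arrays) were reporter-negative and carried Kit and Sca1; LMPP were high for Flt3 without CD150, and HSC GFP- carried CD150 without Flt3. HSC GFP+ cells are not analysed here. Nothing in the labels says whether replicates came from separate animals. The mean signal of 3 Y-linked genes lay between 5.77 and 7.73 over the LMPP arrays and between 6.15 and 7.66 over those of HSC GFP-. It was 6.09 to 7.57 in PreGM GFP+, 5.80 to 7.29 in PreMegE and 5.86 to 7.19 in CLP. GMP GFP+ had 6.06 to 7.14, PreGM GFP- 6.09 to 7.09 and GMP GFP- 6.14 to 6.62. Whether replicates of a group differed in their mix of animals was not tested. The p-values measure the spread between replicate arrays, part of which may be technical. Gata1 differed by 1.67 log2 units between GMP GFP+ and GMP GFP- and by 1.75 between PreGM GFP+ and PreGM GFP-, the direction of the labels.

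In a resting phagocyte the oxidase is kept apart, partly in the membrane and partly in the cytosol. Cybb encodes the catalytic chain, which carries electrons across the membrane, and Cyba encodes the chain that stabilises it; together they form cytochrome b. Ncf1 encodes the cytosolic organiser that binds Cyba once phosphorylated, Ncf4 a cytosolic subunit that binds a lipid of the phagosome membrane, and Rac2 a small GTPase that completes the active complex. Inherited loss of CYBB, CYBA or NCF1 causes chronic granulomatous disease in humans. In human myeloid cells PU.1, the product of SPI1, acts on the promoters of CYBB and NCF1, and IRF8 acts on that of CYBB.

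Ncf4 and Rac2 had no promoter entry in the source used. The promoters of Cybb, Cyba and Ncf1 are shown. They come from RefSeq on GRCm38.p6 and are windows of 300 bases around the annotated start, chrX:9469275-9469574, chr8:122432891-122433190 and chr5:134229576-134229875, all on the minus strand. Capitals mark matches on either strand to GAGGAA (a PU.1 core), to AGATAA, a core bound by Gata1 and its relatives, to the related core TGATAA, and to the composite site of ETS and interferon regulatory factors.
Cybb: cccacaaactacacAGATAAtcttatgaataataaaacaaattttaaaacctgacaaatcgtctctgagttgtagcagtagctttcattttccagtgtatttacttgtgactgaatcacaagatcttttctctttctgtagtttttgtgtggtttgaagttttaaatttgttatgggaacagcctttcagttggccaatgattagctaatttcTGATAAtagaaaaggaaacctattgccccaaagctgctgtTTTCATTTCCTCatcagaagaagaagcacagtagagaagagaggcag
Cyba: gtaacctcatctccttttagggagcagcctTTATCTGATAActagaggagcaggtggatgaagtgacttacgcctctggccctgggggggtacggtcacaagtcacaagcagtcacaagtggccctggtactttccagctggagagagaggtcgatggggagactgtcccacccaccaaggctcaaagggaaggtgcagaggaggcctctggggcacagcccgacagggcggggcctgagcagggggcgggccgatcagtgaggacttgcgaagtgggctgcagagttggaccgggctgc
Ncf1: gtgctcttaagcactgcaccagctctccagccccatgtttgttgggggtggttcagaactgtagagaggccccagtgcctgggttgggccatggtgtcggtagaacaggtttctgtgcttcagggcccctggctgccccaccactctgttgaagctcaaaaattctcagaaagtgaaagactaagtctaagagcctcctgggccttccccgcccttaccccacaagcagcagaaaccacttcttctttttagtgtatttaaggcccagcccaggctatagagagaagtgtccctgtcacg
In the Cybb window GAGGAA stood on the opposite strand, as TTCCTC from base 10 after the start, and overlapped the composite site, which began at base 4. Cybb also held AGATAA from base -236 and TGATAA from base -37. In the Cyba window AGATAA on the opposite strand began at base -220 and overlapped a TGATAA from base -215. The Ncf1 window held none of these letters. Of 32817 windows of the same length, 28.3% held GAGGAA, 18.6% held AGATAA or TGATAA and 2.72% held the composite site. A match describes the letters only.

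Over the 8 groups Cybb, Ncf1, Ncf4 and Cyba differed, and Rac2 was not called. Adjusted p-values of the moderated F test of limma, adjusted over all genes and called under 0.05, were 2.52e-07 for Cybb, 4.80e-08 for Ncf1, 4.52e-06 for Ncf4, 0.0470 for Cyba and 0.460 for Rac2. That is 4 of 5 genes, where 15.2% of all genes were called. The call of Cyba was lost on leaving out any 1 of 19 of the 26 arrays, with adjusted p up to 0.189, and in 4 of 8 other alternatives. Between the lowest and the highest group mean Cybb spanned 4.29 log2 units, Ncf1 2.42, Ncf4 1.78, Cyba 1.58 and Rac2 0.61, against a median of 0.40 over all genes.

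**Figure D1:**
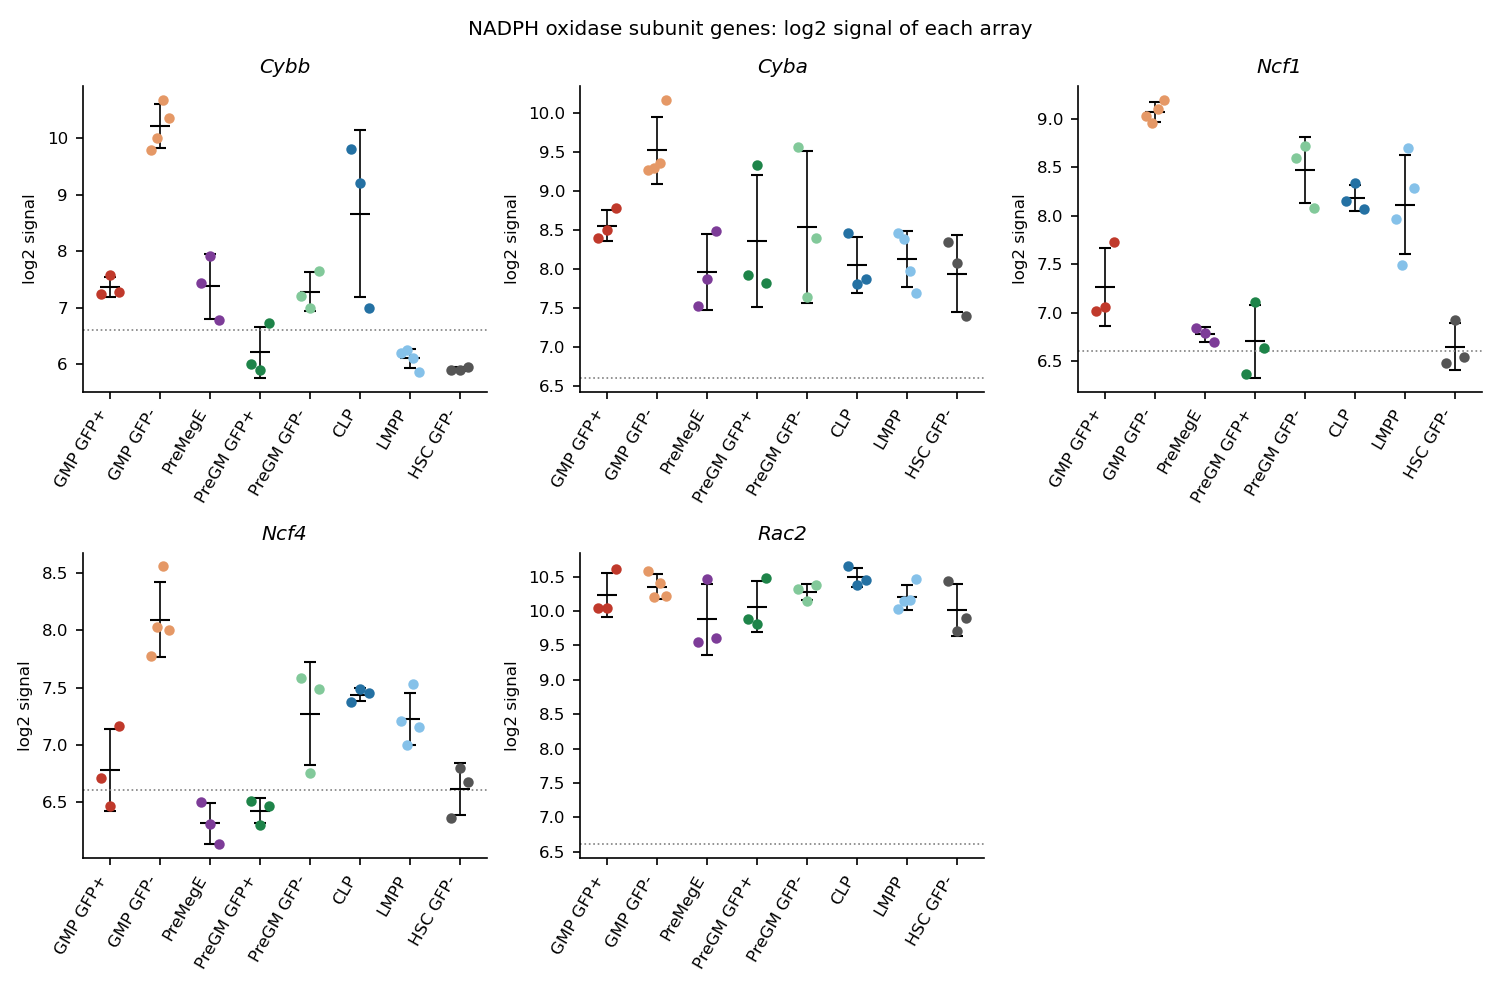
Log2 signal (y axis) of the 5 oxidase subunit genes in each array of the 8 sorted groups (x axis); points are arrays, black bars the mean and SD, and the dotted line the median of all values, 6.61. GMP GFP- has the highest mean of Cybb, Cyba, Ncf1 and Ncf4, CLP has 1 array far below the others for Cybb, and Rac2 is nearly level.

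Cybb, the catalytic chain, was highest in GMP GFP- at 10.20 ± 0.39 on the log2 scale (SD, n = 4). CLP followed at 8.66 ± 1.48 (SD, n = 3), with a range that reached into that of GMP GFP-. PreMegE at 7.37 ± 0.57, GMP GFP+ at 7.37 ± 0.18 and PreGM GFP- at 7.28 ± 0.34 (SD, n = 3 each) overlapped with CLP and with each other. Every array of these groups lay above every array of PreGM GFP+ at 6.21 ± 0.45 (SD, n = 3), LMPP at 6.11 ± 0.17 (SD, n = 4) and HSC GFP- at 5.91 ± 0.03 (SD, n = 3), which overlapped in that order. The means of these last 3 groups are under the median of all values, 6.61. Whether such low signals exceed background was not tested, so a difference from a group with any array under that median is given on the log2 scale and not as a fold.

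Ncf1 and Ncf4, the cytosolic subunits, were ordered much like each other. Ncf1 was 9.07 ± 0.10 (SD, n = 4) in GMP GFP-, above every other array of the series. PreGM GFP- at 8.47 ± 0.34, CLP at 8.19 ± 0.13 (SD, n = 3 each) and LMPP at 8.11 ± 0.51 (SD, n = 4) overlapped below it. GMP GFP+ stood at 7.27 ± 0.40, and PreMegE at 6.78 ± 0.07, PreGM GFP+ at 6.7 ± 0.38 and HSC GFP- at 6.65 ± 0.24 (SD, n = 3 each) overlapped at the low end. Ncf4 was 8.09 ± 0.33 (SD, n = 4) in GMP GFP-, again above every other array. CLP at 7.44 ± 0.06, PreGM GFP- at 7.27 ± 0.45 (SD, n = 3 each) and LMPP at 7.23 ± 0.22 (SD, n = 4) formed the middle of its order. Below them came GMP GFP+ at 6.78 ± 0.36, HSC GFP- at 6.61 ± 0.23, PreGM GFP+ at 6.43 ± 0.11 and PreMegE at 6.32 ± 0.18 (SD, n = 3 each), the last 2 under the median of all values, with overlap between neighbours. As a description over 8 group means that share the same arrays, Pearson's r was 0.96 between Ncf1 and Ncf4, 0.70 between Cybb and Ncf1 and 0.71 between Cybb and Cyba.

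Cyba, the partner chain of Cybb, was 9.52 ± 0.43 (SD, n = 4) in GMP GFP-. The other group means lay between 7.94 in HSC GFP- and 8.55 in GMP GFP+, with overlap between neighbours. Its replicates spread widely in PreGM, with 7.92, 9.33 and 7.82 in PreGM GFP+ and 9.56, 7.63 and 8.40 in PreGM GFP-. Rac2 ranged from 9.88 ± 0.51 in PreMegE to 10.49 ± 0.14 in CLP (SD, n = 3 each), and every pair of neighbouring groups overlapped.

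Within the GMP gate, reporter-positive cells had less Cybb, Ncf1 and Ncf4, and Cyba and Rac2 were not called. Cybb had log2 signals of 7.24, 7.57 and 7.28 in GMP GFP+, against 9.79, 10.01, 10.67 and 10.35 in GMP GFP-. Ncf1 had 7.02, 7.05 and 7.73 in GMP GFP+, against 9.03, 8.95, 9.11 and 9.20 in GMP GFP-. Ncf4 had 6.71, 6.47 and 7.17 in GMP GFP+, against 7.78, 8.03, 8.56 and 8.01 in GMP GFP-. For these 3 genes every GMP GFP+ array lay below every GMP GFP- array. The differences were -2.84 for Cybb (SE 0.41, adjusted p = 8.75e-05 by limma, 7.15-fold lower), -1.80 for Ncf1 (SE 0.23, adjusted p = 1.47e-05, 3.49-fold lower) and -1.31 for Ncf4 (SE 0.20, adjusted p = 0.000139). So 3 of 5 subunit genes fell, where 4.05% of all genes fell and 7.27% changed in either direction. In a sorted bulk sample fewer cells with a transcript and less of it per cell cannot be told apart.

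Cyba had 8.39, 8.49 and 8.78 in GMP GFP+, against 9.26, 9.29, 9.36 and 10.16 in GMP GFP-. Its arrays did not overlap, and the difference of -0.96 (95% interval -1.77 to -0.16) missed the threshold (adjusted p = 0.143 by limma). It passed in 2 of 9 alternatives, with the spread taken from the GMP arrays alone (adjusted p = 0.0301) and with array weights (adjusted p = 0.0452). The weights stopped short of their convergence tolerance. With 1 array left out, Cyba was called in 0 of 7 fits. Arrays lay wholly below for 4 of 5 subunit genes and for 9.61% of all genes. Rac2 had 10.05, 10.04 and 10.61 in GMP GFP+, against 10.59, 10.20, 10.40 and 10.22 in GMP GFP-. These overlapped, with a difference of -0.12 (95% interval -0.56 to 0.32, adjusted p = 0.769) that was 0.12 after quantile normalization. Rac1, the related GTPase of most cell types, differed by -0.19 (adjusted p = 0.389).

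**Figure D2:**
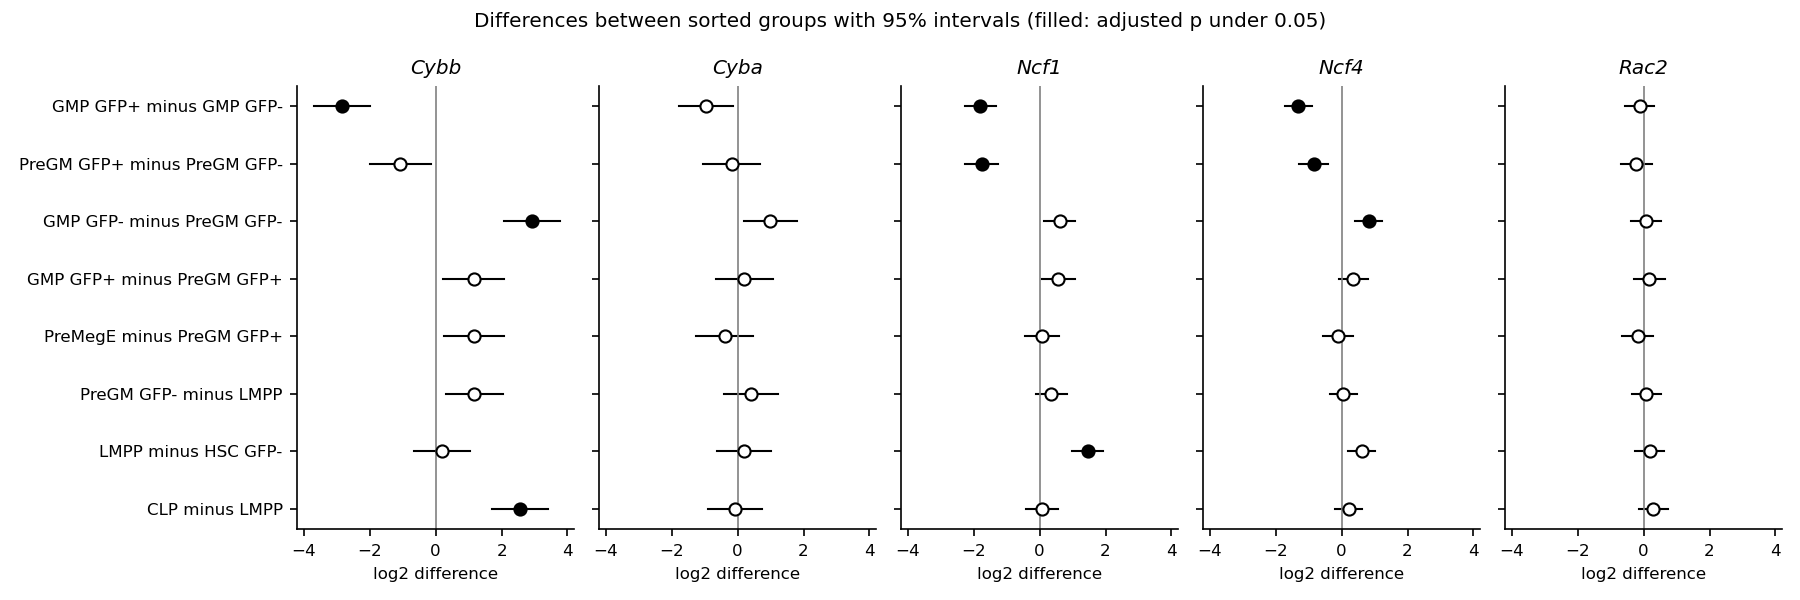
Log2 differences (x axis) of the 5 genes in the comparisons between groups (first-named group minus the other), with 95% intervals as lines; filled points have an adjusted p under 0.05. Cybb, Ncf1 and Ncf4 were lower in GMP GFP+ than in GMP GFP-, and Ncf1 and Ncf4 were lower in PreGM GFP+ than in PreGM GFP-.

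Cybb lies on the X chromosome, and the X-inactivation RNA Xist had 11.32, 11.33 and 10.97 in GMP GFP+, against 10.36, 10.51, 10.14 and 10.03 in GMP GFP-, without overlap. With the average of the Y-linked genes Eif2s3y, Kdm5d and Uty in the model, an alternative chosen after seeing the data, the Cybb difference was -2.82 (adjusted p = 0.000139). The part of Xist in it was not tested.

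In PreGM the reporter comparison called Ncf1 and Ncf4, while Cybb, Cyba and Rac2 were not called. Whether the subunit genes differ from each other in this comparison was not tested. Ncf1 had 6.37, 7.11 and 6.64 in PreGM GFP+, against 8.60, 8.72 and 8.08 in PreGM GFP-. It fell by 1.76 (SE 0.24, adjusted p = 8.94e-05 by limma), without overlap. Ncf4 had 6.51, 6.30 and 6.47 in PreGM GFP+, against 7.58, 6.76 and 7.48 in PreGM GFP-. Its difference was -0.85 (SE 0.21, adjusted p = 0.0355), with a PreGM GFP+ mean under the median of all values. This call was lost without PreGM GFP+ replicate 1 (adjusted p = 0.0837), 2 (0.136) or 3 (0.0936) and without PreGM GFP- replicate 1 (0.210) or 3 (0.159). The Ncf4 call was also lost with the spread of these groups alone (limma adjusted p = 0.183) and with array weights (0.167). Cybb had 6.0, 5.90 and 6.73 in PreGM GFP+, against 7.21, 6.99 and 7.66 in PreGM GFP-. These arrays did not overlap, and the difference of -1.07 (95% interval -1.99 to -0.16, SE 0.44, adjusted p = 0.346 by limma) was not called. Cyba differed by -0.17 (95% interval -1.04 to 0.69) and Rac2 by -0.22 (95% interval -0.69 to 0.25), both with overlapping arrays. The count was 2 of 5 lower, where 1.14% of all genes were lower and 2.05% were called. Arrays of 3 of 5 subunit genes lay wholly below, as did those of 5.82% of all genes.

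Whether the reporter effect differs between GMP and PreGM was tested as an interaction, which called 0 of 5 subunit genes and 0.702% of all genes by limma. Cybb had -1.77 (95% interval -3.02 to -0.51, SE 0.61, adjusted p = 0.354 by limma) and passed with the spread of the GMP and PreGM arrays alone (adjusted p = 0.0375). Ncf1 had -0.04 (95% interval -0.73 to 0.65, adjusted p = 0.989).

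Between LMPP and HSC GFP- Ncf1 was the 1 subunit gene called. LMPP had Ncf1 signals of 7.97, 7.50, 8.70 and 8.29, against 6.48, 6.93 and 6.54 in HSC GFP-, a rise of 1.46 (SE 0.23, adjusted p = 0.000455 by limma) without overlap. Ncf4 had 7.21, 7.0, 7.54 and 7.16 in LMPP, against 6.36, 6.80 and 6.68 in HSC GFP-. Its arrays did not overlap, and its difference of 0.61 was not called (adjusted p = 0.140). Cybb had 6.20, 6.24, 6.11 and 5.87 in LMPP, against 5.90, 5.89 and 5.95 in HSC GFP-, all under the median of all values, with a difference of 0.19 (95% interval -0.66 to 1.05). So 1 of 5 subunit genes rose, where 1.03% of all genes rose and 2.32% were called. Arrays lay wholly above for 2 of 5 and for 4.52% of all genes. In the same comparison 4 of 14 lymphoid markers rose and 0 fell (median 0.13, against -0.04 over all genes), and their mean was 7.42 to 7.79 in LMPP and 6.34 to 6.6 in HSC GFP-. Of 19 neutrophil granule markers 3 rose and 0 fell (median 0.02), of 17 monocyte and macrophage markers 2 rose and 1 fell (median 0.04), and of 15 mast cell and basophil markers 0 rose and 2 fell (median -0.03). Their part in the Ncf1 difference was not tested.

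Between PreGM GFP- and LMPP 0 of 5 subunit genes and 0.873% of all genes were called by limma. Cybb was higher without overlap, by 1.18 in PreGM GFP- (95% interval 0.32 to 2.04, SE 0.41, adjusted p = 0.276 by limma), and passed with the spread of these groups alone (adjusted p = 0.0346). It was 1 of 5 subunit genes with every array above, as were 4.29% of all genes. Ncf1 differed by 0.35, Cyba by 0.41, Rac2 by 0.08 and Ncf4 by 0.05, all with overlap.

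Between GMP GFP- and PreGM GFP- Cybb and Ncf4 were called. Cybb was higher in GMP GFP- by 2.92 (SE 0.41, adjusted p = 0.000162 by limma, 7.57-fold), with 9.79, 10.01, 10.67 and 10.35 in GMP GFP- against 7.21, 6.99 and 7.66 in PreGM GFP-. Ncf4 was higher by 0.82 (SE 0.20, adjusted p = 0.0375, 1.76-fold). That call was lost without GMP GFP- replicate 2 (adjusted p = 0.0805), 3 (0.147) or 4 (0.0606) or PreGM GFP- replicate 2 (0.307). Ncf1 was higher by 0.60 without overlap and without a call (adjusted p = 0.349). Cyba differed by 0.99 with overlap (95% interval 0.18 to 1.79, adjusted p = 0.394) and Rac2 by 0.07 (95% interval -0.37 to 0.52). So 2 of 5 rose, where 0.918% of all genes rose and 1.39% were called, and 3 of 5 lay wholly above, against 3.86%.

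Between GMP GFP+ and PreGM GFP+ 0 of 5 subunit genes and 1.02% of all genes were called by limma. Cybb had 7.24, 7.57 and 7.28 in GMP GFP+, against 6.0, 5.90 and 6.73 in PreGM GFP+, a difference of 1.15 without overlap (95% interval 0.24 to 2.07, SE 0.44, adjusted p = 0.441 by limma). It was 1 of 5 wholly above, as were 7.17% of all genes. Ncf1 differed by 0.56 with overlap (95% interval 0.06 to 1.07, adjusted p = 0.583 by limma). Between PreMegE and PreGM GFP+ 0 of 5 subunit genes and 0.0652% of all genes were called by limma. Cybb had 7.43, 7.92 and 6.77 in PreMegE, against 6.0, 5.90 and 6.73 in PreGM GFP+, a difference of 1.16 (95% interval 0.24 to 2.08, SE 0.44, adjusted p = 0.99994 by limma). Again it was 1 of 5 wholly above, as were 5.21% of all genes. The mean signal of 19 neutrophil granule markers was 7.96 to 8.38 in PreMegE and 6.91 to 7.88 in PreGM GFP+. Of these 1 rose and 1, the myeloperoxidase gene Mpo, fell (median 0.58, against 0.01 over all genes). The mean of 17 monocyte and macrophage markers was 6.27 to 6.48 in PreMegE and 6.37 to 6.42 in PreGM GFP+, where 0 rose and 0 fell (median 0.01). Their part in the Cybb signal was not tested.

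In CLP Cybb was higher than in LMPP, and the other subunit genes were not called. It had 9.80, 9.20 and 6.99 in CLP, against 6.20, 6.24, 6.11 and 5.87 in LMPP. All CLP arrays lay above all LMPP arrays, with CLP replicate 3 far below the other CLP arrays. The difference was 2.56 (SE 0.41, adjusted p = 0.000747 by limma), and 1.99 (adjusted p = 0.0109) without CLP replicate 1, 2.29 (0.0114) without replicate 2 and 3.39 (8.98e-08) without replicate 3. It was lost with the spread of these groups alone (adjusted p = 0.122). Cyba differed by -0.08, Ncf1 by 0.07, Ncf4 by 0.21 and Rac2 by 0.29, all with overlap. So 1 of 5 rose, where 0.828% of all genes rose and 1.57% were called, and 1 of 5 lay wholly above, against 6.7%. The monocyte marker mean was 8.49, 8.42 and 7.40 in CLP replicates 1, 2 and 3, against 7.0 to 7.22 in LMPP, and the mean of 14 lymphoid markers was 9.24, 9.0 and 9.80 in the same CLP arrays, against 7.42 to 7.79 in LMPP. CLP replicate 3 thus had the lowest Cybb and monocyte marker mean and the highest lymphoid marker mean of its group; their part in the result was not tested.

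**Figure D3:**
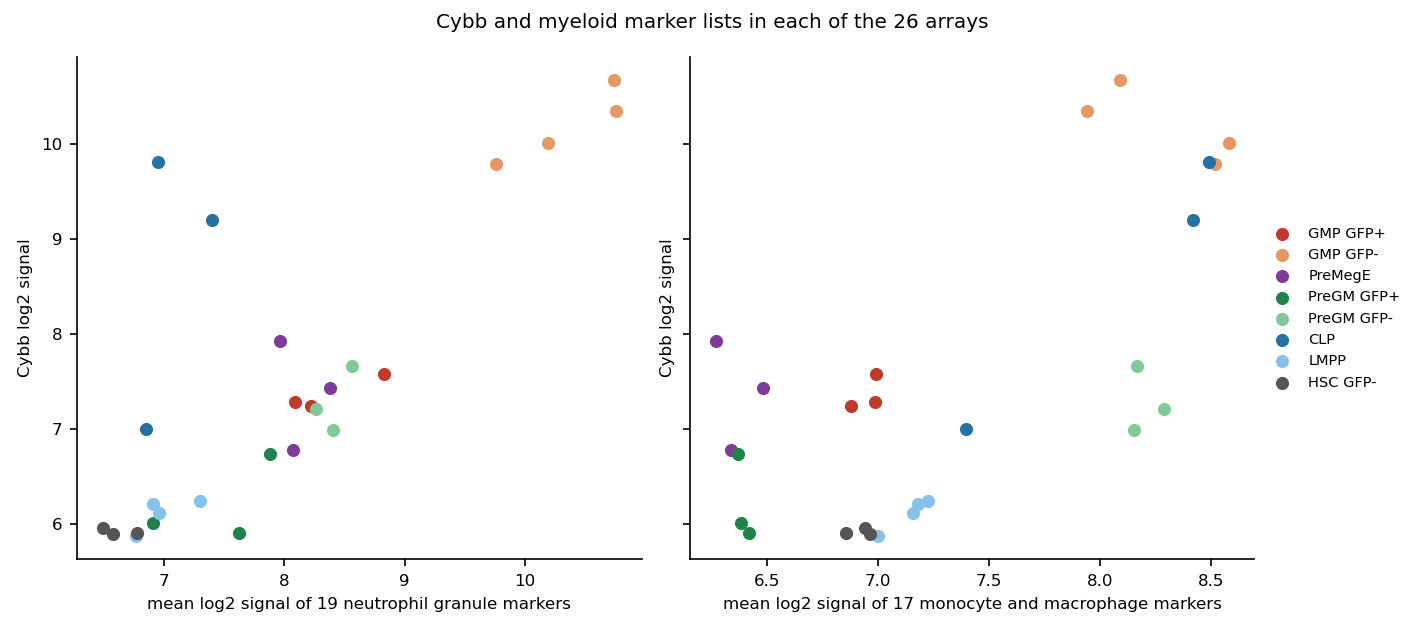
Cybb log2 signal (y axis) in each of the 26 arrays against the mean log2 signal of 19 neutrophil granule markers and of 17 monocyte and macrophage markers (x axes); each point is 1 array, coloured by group. GMP GFP- is high on all axes, and CLP replicates 1 and 2 have high Cybb with neutrophil marker means of 6.95 and 7.40. PreGM GFP- has monocyte marker means of 8.15 to 8.29, within the range of GMP GFP-, with Cybb of only 6.99 to 7.66.

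Markers of several cell types differed in both reporter comparisons, some lower, like the called subunit genes, and some higher. In GMP GFP+ 13 of 19 neutrophil granule genes were lower and 0 higher (median -1.95, against 0.08 over all genes, of which 7.27% were called), among them the haptoglobin gene Hp by 3.75 and the lactoferrin gene Ltf by 3.09. Of 17 monocyte or macrophage genes 10 were lower and 1 higher (median -1.06), among them the clotting factor gene F13a1, which fell by 4.04. Of 15 mast cell and basophil genes 11 rose and 0 fell (median 2.36), with the IgE receptor gene Fcer1a at 6.30. Of 13 erythroid genes 10 rose and 0 fell (median 0.75), with a mean of 8.0 to 8.18 in GMP GFP+ and 6.78 to 7.03 in GMP GFP-. The mast cell and basophil mean was 9.5 to 9.62 in GMP GFP+ and 6.98 to 7.11 in GMP GFP-. The neutrophil marker mean was 8.09 to 8.83 in GMP GFP+ and 9.76 to 10.76 in GMP GFP-, and the monocyte marker mean was 6.88 to 6.99 in GMP GFP+ and 7.94 to 8.58 in GMP GFP-. Under the median of all values were 2 neutrophil and 8 monocyte markers in GMP GFP+, and 1 and 3 in GMP GFP-.

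The marker lists also differed between the PreGM groups and between GMP GFP- and PreGM GFP-. In PreGM GFP+ 7 of 19 neutrophil genes (median -0.68) and 9 of 17 monocyte genes (median -1.65) fell, and 0 of either rose, against a median of 0.04 over all genes, of which 2.05% were called. Of 14 lymphoid genes 4 fell and 0 rose there (median -0.60), with a mean of 6.45 to 6.48 in PreGM GFP+ and 7.37 to 7.91 in PreGM GFP-. Of 13 erythroid genes 8 rose and 0 fell (median 1.36), with a mean of 8.56 to 8.88 in PreGM GFP+ and 6.89 to 7.26 in PreGM GFP-. Of 15 mast cell and basophil genes 6 rose and 0 fell (median 0.19), with a mean of 7.69 to 7.97 in PreGM GFP+ and 6.89 to 7.07 in PreGM GFP-. In GMP GFP- over PreGM GFP- 12 of 19 neutrophil genes rose and 0 fell (median 2.29), while 2 of 17 monocyte genes rose and 1 fell (median 0.04), against -0.01 over all genes, of which 1.39% were called. Of 14 lymphoid genes 4 fell and 0 rose (median -0.65), with a mean of 6.32 to 6.66 in GMP GFP- and 7.37 to 7.91 in PreGM GFP-. The part of these cell types in the subunit signals was not tested.

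Of 14 further oxidase and assembly genes measured, 1 fell and 0 rose in GMP GFP+ (median 0.07, against 0.08 over all genes). That share is close to the background, since 4.05% of all genes fell and 7.27% were called. None of the 14 was called by limma in PreGM GFP+, where 2.05% of all genes were called. The gene that fell was Hvcn1, the proton channel that balances the charge moved by the oxidase. It had 6.42, 6.61 and 7.06 in GMP GFP+, against 6.96, 7.63, 7.28 and 7.39 in GMP GFP-, a difference of -0.62 (SE 0.15, adjusted p = 0.0116 by limma) with overlap of 1 GMP GFP+ array. Hvcn1 was also the 1 gene of 14 called in GMP GFP- over PreGM GFP-, where it rose by 0.95 (adjusted p = 0.000582 by limma) and 1.39% of all genes were called. The same held in GMP GFP+ over PreGM GFP+, where Hvcn1 rose by 0.74 (adjusted p = 0.0170 by limma) and 1.02% of all genes were called. Both PreGM means of Hvcn1 are under the median of all values. Cybc1, the chaperone of cytochrome b, had 8.27, 8.68 and 8.45 in GMP GFP+, against 8.19, 8.19, 8.22 and 7.75 in GMP GFP-, without overlap and without a call (difference 0.38, adjusted p = 0.410).

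**Figure D4:**
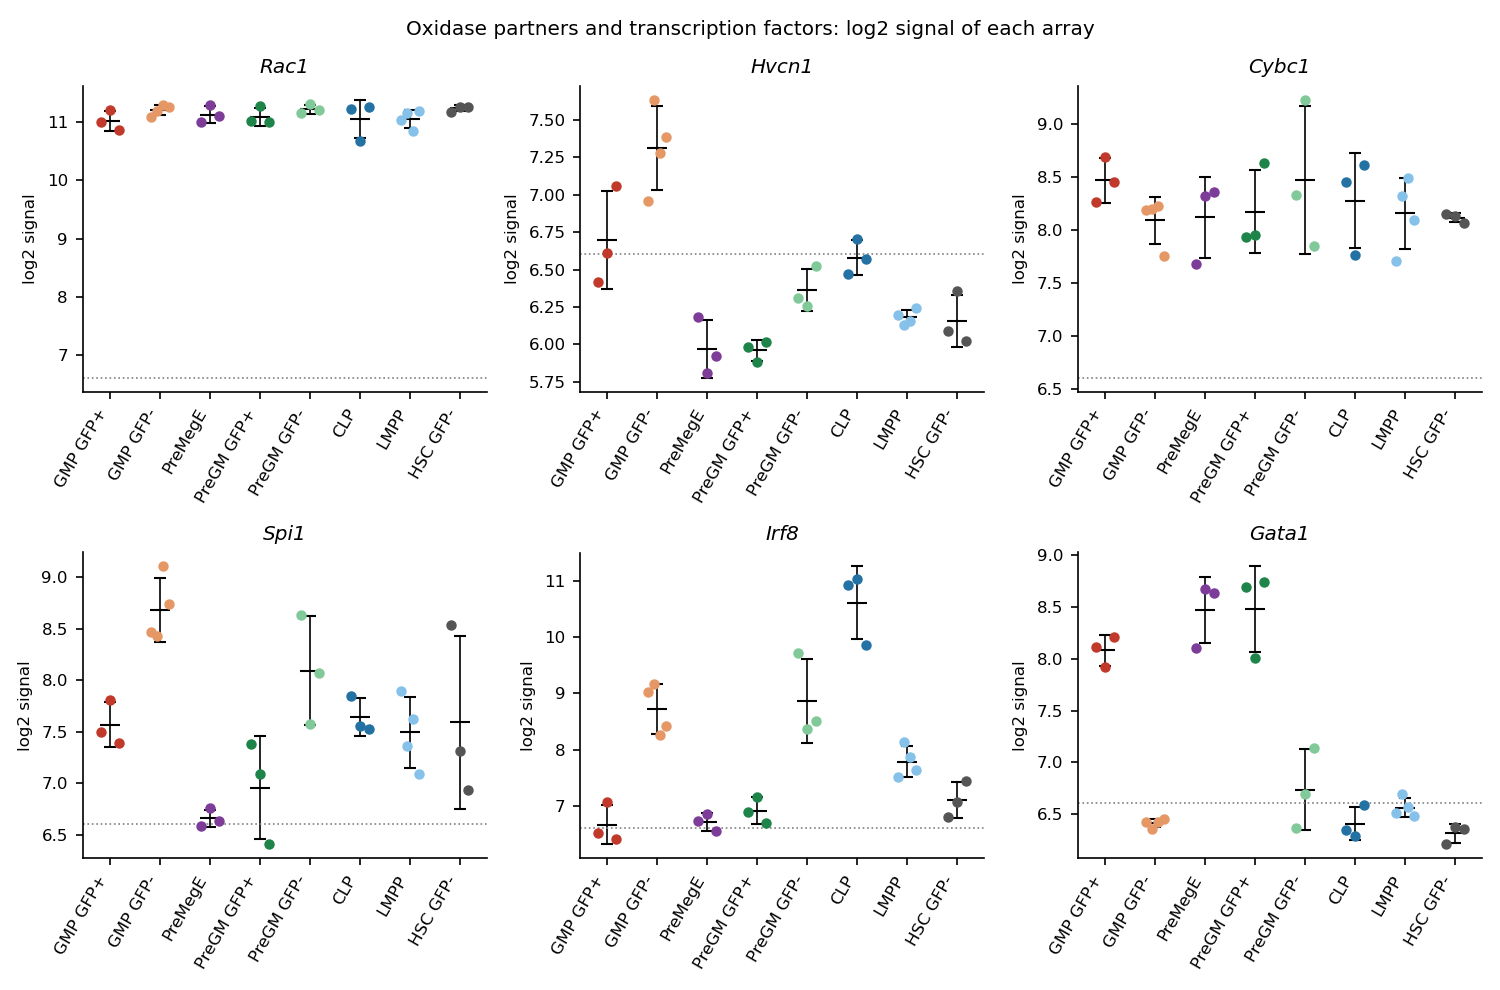
Log2 signal (y axis) of Rac1, the proton channel gene Hvcn1, the chaperone gene Cybc1 and the factors Spi1, Irf8 and Gata1 in each array of the 8 groups (x axis); points are arrays, black bars the mean and SD, and the dotted line the median of all values, 6.61. Hvcn1 and Spi1 have their highest means in GMP GFP-, Irf8 in CLP, and Gata1 is high in GMP GFP+, PreMegE and PreGM GFP+.

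Some genes that signal to the oxidase were called. In GMP GFP+ 4 of 27 fell and 1 rose (median -0.20, against 0.08 over all genes), where 4.05% of all genes fell and 7.27% were called. Vav3, an exchange factor of Rac proteins, fell by 1.53 (SE 0.29, adjusted p = 0.00174 by limma), Itgam, the alpha chain of a complement receptor, by 1.30 and the phospholipase gene Plcg2 by 1.13. The protein kinase C gene Prkca rose by 1.67 (SE 0.20, adjusted p = 8.61e-06 by limma). In PreGM GFP+ 3 of 27 fell and 1 rose (median -0.21, against 0.04 over all genes, of which 2.05% were called): Vav3 fell by 1.88, the adaptor gene Tyrobp by 1.81 and Plcg2 by 0.95, and Prkca rose by 0.92. In GMP GFP- over PreGM GFP- 4 of 27 rose and 0 fell (median 0.18, against -0.01), where 0.918% of all genes rose. These were Fcgr3, a gene of the gated Fc gamma receptors, by 2.04, the integrin beta chain gene Itgb2 by 0.99, the kinase gene Prkcb by 0.93 and the fungal receptor gene Clec7a by 0.87. In CLP over LMPP 3 of 27 rose and 0 fell (median 0.07, against 0.04 over all genes, of which 0.828% rose), namely the Fc receptor gamma chain gene Fcer1g by 1.92, Prkca by 0.92 and Prkcb by 0.81. In GMP GFP+ over PreGM GFP+ 3 of 27 rose and 0 fell (median 0.17, against 0.01), where 1.02% of all genes were called. In PreGM GFP- over LMPP 1 of 27 rose, where 0.873% of all genes were called. In LMPP over HSC GFP- 1 of 27 rose, where 2.32% were called.

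Of 24 genes that remove or use superoxide and peroxide, 3 fell and 1 rose in GMP GFP+ (median -0.05, against 0.08 over all genes), where 4.05% of all genes fell and 7.27% were called. The glutathione reductase gene Gsr fell by 1.30 (SE 0.22, adjusted p = 0.000595 by limma), the thioredoxin reductase gene Txnrd1 by 0.69 and the glutathione peroxidase gene Gpx3 by 0.59, while the eosinophil peroxidase gene Epx rose by 3.34. In GMP GFP- over PreGM GFP- 2 of 24 rose and 0 fell (median 0.07, against -0.01 over all genes, of which 0.918% rose): Gsr rose by 2.12 (SE 0.22, adjusted p = 2.96e-06 by limma) and Gpx3 by 0.68. In PreGM GFP+ 1 of 24 fell and 1 rose (median -0.03, against 0.04), where 2.05% of all genes were called. The myeloperoxidase gene Mpo, whose enzyme uses the peroxide made from superoxide, fell by 1.64, and the glutathione synthesis gene Gclm rose by 0.92. In GMP GFP+ over PreGM GFP+ 3 of 24 rose and 1 fell (median -0.04, against 0.01), where 1.02% of all genes were called: Epx rose by 3.35, Mpo by 1.51 and Gsr by 1.10, and Gclm fell by 0.96. In 4 other comparisons between groups 1 gene of 24 was called. The interaction of reporter and gate also called 1 of 24, where 0.702% of all genes were called. Of all genes 2.32% were called in LMPP over HSC GFP- and 0.873% in PreGM GFP- over LMPP. The shares were 0.0652% in PreMegE over PreGM GFP+ and 1.57% in CLP over LMPP. Mpo rose by 2.55 in LMPP over HSC GFP- and by 1.67 in PreGM GFP- over LMPP and fell by 1.91 in PreMegE over PreGM GFP+, and Gclm fell by 1.08 in CLP over LMPP.

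Of 14 factors linked to the oxidase genes or the reporter, 3 rose and 2 fell in GMP GFP+ (median -0.02, against 0.08 over all genes), where 7.27% of all genes were called. Irf8 had 6.52, 7.07 and 6.42 in GMP GFP+, against 9.02, 9.17, 8.26 and 8.43 in GMP GFP-, a difference of -2.05 (SE 0.31, adjusted p = 0.000117 by limma). Spi1 had 7.50, 7.81 and 7.39 in GMP GFP+, against 8.47, 8.43, 9.10 and 8.73 in GMP GFP-, a difference of -1.12 (SE 0.30, adjusted p = 0.0251 by limma). Neither gene overlapped between these groups. In PreGM GFP+ 2 of 14 rose and 1 fell, where 2.05% of all genes were called. There Irf8 fell by 1.95, and Spi1 differed by -1.13 without a call (adjusted p = 0.0801 by limma). In GMP GFP- over PreGM GFP-, where Cybb rose, Irf8 differed by -0.15 (95% interval -0.78 to 0.48) and Spi1 by 0.59 (95% interval -0.03 to 1.22), neither called. The granulocyte factor gene Cebpe was the 1 of 14 called there, where 1.39% of all genes were called, and rose by 1.86 (SE 0.21, adjusted p = 8.22e-06 by limma). In GMP GFP+ over PreGM GFP+ 3 of 14 rose and 0 fell, where 1.02% of all genes were called. In LMPP over HSC GFP-, where Ncf1 rose and 2.32% of all genes were called, Cebpa rose by 0.72, Gata2 fell by 1.02 and Spi1 differed by -0.10 (95% interval -0.73 to 0.53). In CLP over LMPP, where Cybb rose and 1.57% of all genes were called, Irf8 was the 1 of 14 called and rose by 2.82 (SE 0.31, adjusted p = 3.71e-06 by limma), with 10.93, 11.03 and 9.86 in CLP. Over the 8 group means, as a description, Spi1 had r = 0.90 with Ncf4, 0.83 with Ncf1, 0.76 with Cyba, 0.71 with Rac2 and 0.63 with Cybb. Gata2 had r = -0.87 with Ncf4, -0.86 with Ncf1, -0.72 with Rac2, -0.55 with Cybb and -0.29 with Cyba. Gata1 had -0.72 with Ncf4, -0.63 with Ncf1, -0.58 with Rac2, -0.26 with Cybb and -0.16 with Cyba. Irf8 had 0.73 with Ncf4, 0.73 with Ncf1, 0.84 with Rac2, 0.58 with Cybb and 0.17 with Cyba, and Cebpa had 0.52 with Ncf4, 0.57 with Ncf1, 0.44 with Rac2, 0.39 with Cybb and 0.83 with Cyba. The values of r with Rac2 rest on group means that the F test of limma did not tell apart (adjusted p = 0.460).

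The genes most like each subunit over the 8 group means were sought among 11531 genes whose highest group mean reached the median of all values. For Cybb these were the actin-binding protein gene Twf2 (r = 0.98), Parpbp (0.97) and Derl2 (0.97). For Cyba they were the DNA repair gene Tdp1 (r = 0.98), the autophagy gene Atg3 (0.98) and the cargo receptor gene Lman1 (0.97). Ncf1 was most like Aldh1b1 (r = 0.98), Plxnd1 (0.97) and the centromere gene Cenph (0.97), and Ncf4 was most like Edem2 (r = 0.99), Acot7 (0.99) and Plxnd1 (0.98). Rac2, which was not called over the 8 groups (adjusted p = 0.460 by the F test of limma), was most like the nuclear envelope gene Lbr (r = 0.98) and the mitosis genes Nuf2 (0.98) and Cep55 (0.97). These are the highest of many values over 8 points that share the same arrays.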

How the data were processed

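The authors deposited log2 signals, 1 per probe set and array, for RNA on Affymetrix Mouse Gene 1.1 ST arrays, per the labels. The submitters' processing notes name RMA and oligo without versions or steps; base 2 was taken from the range of the values. Array medians lay between 6.42 and 6.7; no raw intensities were used, and the number of arrays limits the precision. Of 35556 probe sets, 21789 named 1 gene in the annotation, which is that of the 1.0 ST version, 1621 several and 12146 none; only the first kind was used.

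A model with 1 mean per group was fitted to all 26 arrays in limma 3.58.1 under R 4.3.3, with Benjamini-Hochberg adjustment over 19938 genes and calls at an adjusted p under 0.05; it was tested on simulated data. Each difference is the group named first less the other. The members and lists were chosen with earlier results of these data known. From each list at most 4 called genes with the largest differences are named per comparison; Spi1, Irf8, Cebpa, Gata1, Gata2 and Rac1 are named in any, and Cybc1, Xist and the Y-linked genes were added after their values were seen. Irf8, Mpo, Gata2, Fcgr1 and Clec7a stand in more than 1 list.

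Replicate numbers were not used as pairs. Alternatives were centring, quantile normalization, a filter on dim genes, the mean of probe sets, the spread of the groups compared, array weights, a trended robust prior, a replicate block, Y-linked signal as a covariate, and each array left out.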

Additional observations from a re-analysis of the deposited data

Results flagged for a closer look

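Cyba in GMP GFP- replicate 4 was 10.16, far above the other 3 arrays of its group, which lay between 9.26 and 9.36. Of 10 groups of 4 arrays examined over the 5 genes it was the 1 with an array so far from the rest, and chance alone marks about 1 group in 20. Without this array the Cyba difference between GMP GFP+ and GMP GFP- was -0.75 (limma adjusted p = 0.268), and the F test of Cyba over the 8 groups had an adjusted p of 0.189.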

How the results depend on the processing

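No called difference of a subunit gene turned its direction under the alternatives run. With the spread of the groups compared, or with array weights, 1 subunit gene was called for PreGM GFP+ against PreGM GFP- and 1 for GMP GFP- against PreGM GFP-, where 2 are reported; leaving out 1 array gave 1 to 2 in each. The spread of the groups compared gave 1 gene for PreGM GFP- against LMPP and 1 for the difference between the reporter effects, where 0 are reported, and 0 for CLP against LMPP, where 1 is reported. Fewer arrays then estimate the spread. With the replicate number as a block, 3 subunit genes passed the F test, where 4 are reported (Cyba, adjusted p = 0.103). Cyba was also lost with quantile normalization (adjusted p = 0.0862), centring (0.0546) and the Y-linked covariate (0.0647). Under the block the other counts of subunit genes kept their values, and 8 genes in all were called for PreMegE against PreGM GFP+, where 13 are reported. The labels do not say what a number marks, and no comparison met the criterion for pairing, that every same-number correlation of deviations from the group means be over 0.1 (range -0.26 to 0.33); PreGM GFP- against LMPP came nearest, with a lowest value of 0.0996. In 0 of 8 comparisons did every array correlate best with its own number. For PreGM GFP- against LMPP 5 of 6 arrays did. The count was 4 of 6 for PreGM GFP+ against PreGM GFP- and for GMP GFP+ against PreGM GFP+. It was also 4 of 6 for LMPP against HSC GFP- and for CLP against LMPP. GMP GFP+ against GMP GFP- had 2 of 6, and GMP GFP- against PreGM GFP- and PreMegE against PreGM GFP+ had 1 of 6 each. As a hint of shared sources from the data, the mean of the Y-linked genes was lowest in replicate 2 and highest in replicate 3 of replicates 1 to 3 in 6 of 8 groups; PreMegE and HSC GFP- had replicate 1 lowest and replicate 2 highest.

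Counts over all genes moved by over 1.5 times as follows. Array weights gave 2799 for GMP GFP+ against GMP GFP- (1449 reported), 213 for PreGM GFP+ against PreGM GFP- (408), 99 for GMP GFP- against PreGM GFP- (277), 348 for GMP GFP+ against PreGM GFP+ (203), 21 for PreMegE against PreGM GFP+ (13), 46 for PreGM GFP- against LMPP (174), 842 for LMPP against HSC GFP- (462), 581 for CLP against LMPP (314) and 4649 for the F test (3036). The spread of the groups compared gave 217 for PreGM GFP+ against PreGM GFP-, 174 for GMP GFP- against PreGM GFP-, 116 for GMP GFP+ against PreGM GFP+, 0 for PreMegE against PreGM GFP+, 66 for PreGM GFP- against LMPP, 228 for LMPP against HSC GFP- and 165 for CLP against LMPP. PreMegE against PreGM GFP+ gave 8 with centring or the Y-linked covariate, 7 without PreMegE replicate 1 or PreGM GFP+ replicate 3, and 8 without PreMegE replicate 2 or PreGM GFP+ replicate 2. GMP GFP+ against GMP GFP- gave 880 without GMP GFP+ replicate 3 and 953 without GMP GFP- replicate 2, PreGM GFP- against LMPP 110 without LMPP replicate 3, and CLP against LMPP 199 without CLP replicate 2. The array weights were an estimate that stopped short of its convergence tolerance. The cause of these changes was not tested.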

Other observations

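Other members of the oxidase family gave low signals in these cells. Of 9 such genes measured, 7 (Nox1, Nox3, Nox4, Noxa1, Duox1, Duox2 and Duoxa2) had means under the median of all values in all 8 groups. The highest array value was 5.57 for Nox1, the oxidase of the colon, 5.73 for Nox3, that of the inner ear, and 5.43 for Nox4, that of the kidney. Noxo1, an organiser related to Ncf1, had group means between 6.74 and 7.01, and Rap1a, a small GTPase that binds cytochrome b, between 10.27 and 10.56. These genes were named after their values were seen.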
